A study of Mus musculus with 24 samples.

Results

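Cytosolic ribosomal proteins are the protein parts of the ribosome that translates nuclear-encoded messages. Their genes were taken as those whose probe accession maps to a symbol starting with Rpl or Rps and a number, or to Rplp0, Rplp1, Rplp2 or Rpsa, without the Rps6k kinases, Rps19bp1 and pseudogenes named with -ps. This gave 85 genes of the 20022 named on the array. By name 46 were counted with the large subunit, 31 with the small subunit and 8 as paralogues. The paralogues are Rpl3l, Rpl7l1, Rpl10l, Rpl22l1, Rpl36al, Rpl39l, Rps4l and Rps27l. Of the 85 genes, Rps4l is annotated as a transcribed pseudogene. Rps23rg1, counted with the small subunit by its name alone, is a retrogene copy of Rps23. Each gene was read through its brightest probe.

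RNA came from mouse CD4+ T cells differentiated in culture to the Th1 or the Th2 fate, from female C57BL/6 mice. The 24 conditions, with 1 array each, were unstimulated or reactivated cells with DMSO as control, with JQ1 at 50 or 500 nM, or with Flavopiridol at 1 or 10 µM. Treatment lasted 6 hr, and Th1 cells also had DMSO and 500 nM JQ1 arrays at 24 hr. For the Th2 DMSO arrays the title gives 24 hr and the source name 6 hr, so their time is unclear. Every array compared the sample, labelled with Cy3, with naive CD4+CD62L+CD25-CD44lo T cells from lymph nodes and spleens of the same strain and sex, labelled with Cy5. The series gives 1 biological replicate per condition, so the 4 cell contexts (Th1 or Th2, unstimulated or reactivated) stood in for replicates of a drug effect, and the p-values measure the spread between those contexts. JQ1 displaces BET proteins from chromatin, and Flavopiridol inhibits cyclin-dependent kinases, among them the kinase of P-TEFb that releases paused RNA polymerase II.

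Ribosomal proteins assemble with ribosomal RNA in the nucleolus into the large and small subunits. Their mRNAs are among the most abundant and most stable in a cell, and most of them start with a terminal oligopyrimidine (TOP) tract, a run of C and T through which mTOR and Larp1 control their translation. A T cell that is activated grows and makes ribosomes before it divides, so the output of this gene family can be set at transcription, at mRNA stability or at translation, of which arrays see only the mRNA level.

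Start-site sequences are shown for members whose values carry the comparisons below, with the pyrimidine run in capitals, because that run is the shared feature of the family. They are 30-base stretches of the sense strand from RefSeq on the GRCm38.p6 build, in which 64 of the 85 genes were matched and 21 were not, Rpl21, Rpl7, Rps20 and Rpl3 among them.
Rps27, chr3:90213626-90213655, minus strand: tttcgCTCCTTTCCggcggtgacgacctcc
Rps27l, chr9:66946059-66946088, plus strand: ctccaCTCCTCTCCactcctccccgccgcc
Rpl7l1, chr17:46782664-46782693, minus strand: gcgggCCTCTCTaccccgcccggtgaggct
Rpl36al, chr12:69184018-69184047, minus strand: tctgttcgTCCCTTTCCTgttcggcgcgtg
Rps21, chr2:180257399-180257428, plus strand: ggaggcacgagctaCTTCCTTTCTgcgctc
Rps6, chr4:86857344-86857373, minus strand: tcgggCCTCTTTTTCgtgacgcctcccagg
Rpl7a, chr2:26910788-26910817, plus strand: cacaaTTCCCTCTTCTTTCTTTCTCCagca
Rpl10, chrX:74270836-74270865, plus strand: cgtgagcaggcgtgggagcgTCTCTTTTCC
Rps2, chr17:24720083-24720112, plus strand: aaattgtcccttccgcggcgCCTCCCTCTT
Rplp0, chr5:115559473-115559502, plus strand: cctggTTCTCCTataaaaggcacacgcggg

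A run of at least 7 letters made of C and T, holding both, lay within 50 bases of the annotated start on the sense strand in 65 of the 76 windows of these genes (85.5%), against 49.7% of the 32851 windows of all genes. The ETS-type motif CCGGAAG, searched on both strands of the 300-base window, was present in 35.5% of the members' windows and 8.86% of all. The YY1-type motif AANATGGC was present in 22.4% against 6.05%, and TATAAA in 9.21% against 13.6%. The run started at base -1 relative to the annotated start in Rps6, -2 in Rps27 and -14 in Rpl7a, where it was 21 bases long, and at base 41 in Rps2 and Rpl10. Annotated starts can be off by some bases, so the place of a run is a description of the window and not a mapped tract.

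Most ribosomal protein probes were bright. Of the 100 brightest genes 50 were members, 77 of the 83 members tested had a mean log2 intensity above 14, and no member was saturated on any array. The signal was well above background on all 24 arrays for 81 members, on 21 arrays for Rpl39l and Rps4l, and on none for Rpl3l, known from striated muscle, and Rpl10l, known from testis. Processed pseudogenes of this family are many in the mouse genome, and a probe can also read near-identical copies.

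The 4 Th1 markers (Tbx21, Ifng, Il12rb2, Cxcr3) summed to 12.5 to 19.4 on the log2 Cy3 scale on the 14 Th1 arrays and to 8.39 to 13.1 on the 10 Th2 arrays, and the 4 Th2 markers (Gata3, Il4, Il5, Il13) to a median of 10.4 and 12.6, with overlap, so that each list was higher in the cells labelled with it. All 6 T cell markers were well above background on all arrays, while 2 to 6 of 6 B cell markers, 2 to 4 of 5 myeloid markers and 0 to 4 of 5 CD8 and NK markers were, with Lyz2 and Klrb1c on none. The summed Cy3 level on the log2 scale ranged from 15.3 to 17.3 for the T cell list, 9.46 to 12.3 for the B cell list, 12.2 to 14.2 for the myeloid list and 8.49 to 9.90 for the CD8 and NK list. Over all probes, 35.4 to 52.0% were well above background in Cy3, with the 8 Flavopiridol arrays lowest at 35.4 to 41.5%, and 48.1 to 53.8% in Cy5. Levels are log2 ratios to the naive reference after loess, which centres each array on the bulk of its probes at each brightness, so a ratio is relative to the other genes and not an amount per cell. In bulk RNA of this kind fewer cells of a type and less RNA per cell cannot be told apart.

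After loess the family's median sat below the naive reference on every array, as it did with median or spike-in centring and with the scanner software's ratio, while with the spike-in shift it was above 0 on 9 of the 24. The median over the 81 members measured everywhere was -0.40 and -0.49 in unstimulated and reactivated Th1 cells at 6 hr, -0.90 and -0.71 in Th1 cells at 24 hr, and -0.27 and -0.38 in Th2 cells, all with DMSO. With 10 µM Flavopiridol it was -0.59 and -0.65 in Th1 cells and -0.25 and -0.27 in Th2 cells, and over the 24 arrays it ran from -0.90 to -0.21. The array of unstimulated Th1 cells at 24 hr stood apart as the lowest, and there the members' median was 16.1 in Cy3 and 17.2 in Cy5. The medians of all other genes lay between -0.31 and 0.08. Of the 81 members, 51 were below 0 on all 24 arrays after loess and 3 (Rps27l, Rpl7l1 and Rps2) were above 0 on all 24. These counts were 74 and 0 with median centring and 78 and 0 with spike-in centring. With the spike-in shift they were 14 and 0, and with the scanner software's ratio 32 and 9.

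**Figure D1:**
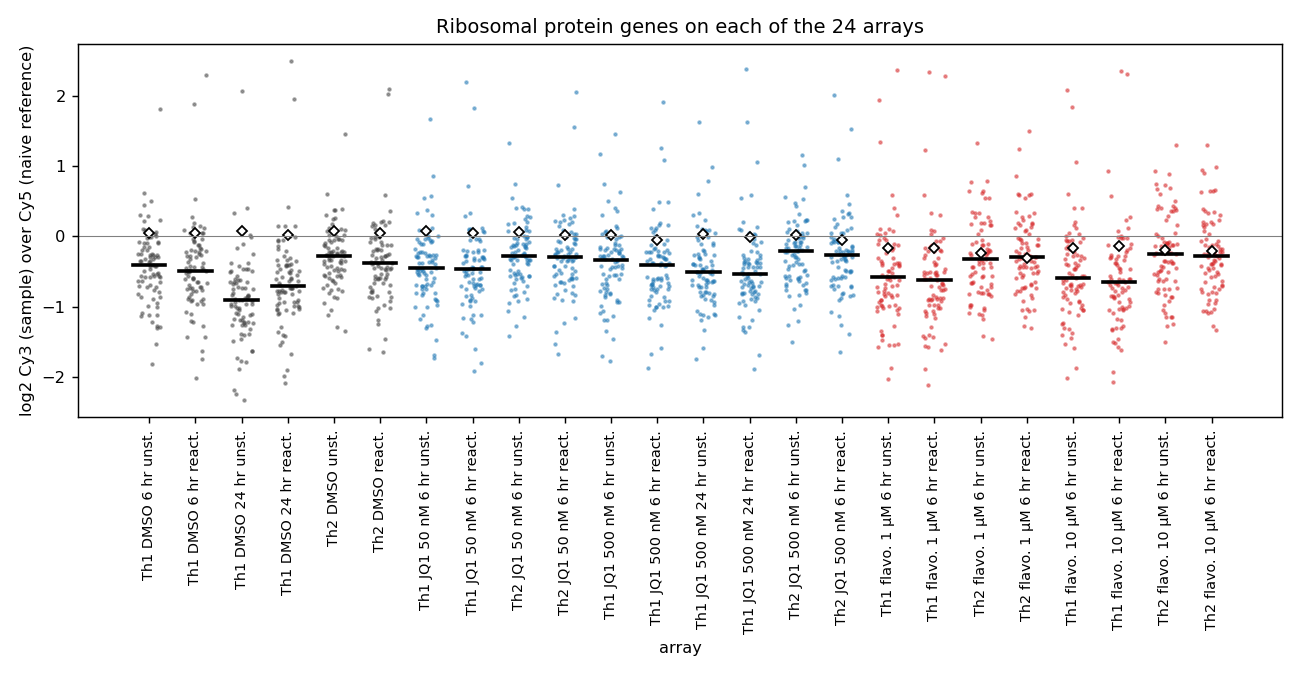
Log2 ratio of sample over naive reference for the 81 ribosomal protein genes measured on all 24 arrays (1 point per gene; grey DMSO, blue JQ1, red Flavopiridol), with the family's median as a bar and the median of the other genes as a diamond. The bars lie between -0.90 and -0.21, lowest in unstimulated Th1 cells at 24 hr with DMSO, and the points above 1.5 belong to Rps27l, Rpl7l1 and, with Flavopiridol, Rpl21.

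Members moved together from array to array. The median correlation between pairs of members was 0.563 over the 24 arrays, which share 1 reference RNA and 1 scaling, and 66 of 81 members correlated above 0.5 with the mean of the others. Rps13, a small subunit protein, followed that mean most closely (r = 0.967), then Rpl13 (0.950) and Rpl26 (0.948), while Rps27l (-0.67), Rpl7l1 (-0.42) and Rpl36al (-0.21) ran against it. All 3 that ran against the family are paralogues. The SD of a member over the 24 arrays was 0.235 in the median, against 0.577 for the 8728 other genes measured on all arrays. These SDs are not matched for brightness, and the pairwise correlation of other genes was not computed. The 5 other genes with the pattern most like the members' mean, by Pearson's r over the 24 arrays, were Gm6607 (0.868), Acbd7 (0.857), Sprr2a2 (0.851), Gm4832 (0.840) and the elongation factor gene Eef1b2 (0.824).

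The 3 unstimulated DMSO arrays were compared with the naive reference they shared. By limma with Benjamini-Hochberg adjustment over all genes, 3 of 83 members were higher and 44 lower in the cultured cells, where 31.1% of the 11767 genes tested were higher and 22.3% lower (53.5% either way). The members' median was -0.51 against 0.08 for all genes, and across 7 other scalings of the arrays it stayed below 0, at -1.82 to -0.15, with 22 to 82 members lower and 1 to 8 higher. No array had the dyes swapped, so dye and group cannot be told apart in this comparison, and the reference's own spread is not in it. Both subunits took part: 18 of 31 small subunit and 25 of 46 large subunit members were lower, with medians of -0.58 and -0.51.

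The genes named here for their distance from the naive cells were chosen after their values were seen. Rps27, a zinc-finger protein of the small subunit, read -1.81 in Th1 cells at 6 hr, -2.20 in Th1 cells at 24 hr and -1.29 in Th2 cells, all unstimulated. The fitted change was -1.77 ± 0.191 (SE, n = 3 arrays), 3.40-fold lower (limma adjusted p = 0.00157). Rps14, whose loss causes a human anaemia, was lower by the same order (-1.74 ± 0.213, adjusted p = 0.00226), and Rps24 followed (-1.56 ± 0.238, adjusted p = 0.00437). Rps16, Rpl37a and Rpl12, a protein at the base of the ribosomal stalk, were at -1.37, -1.33 and -1.33.

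Opposite to its parent gene, the p53-inducible paralogue Rps27l read 1.81, 2.07 and 1.46 on the same 3 arrays. It was 3.44-fold higher than in naive cells (1.78 ± 0.151, limma adjusted p = 0.000733). After loess it lay above 0 on all 24 arrays and Rps27 below, but with median centring Rps27l was below 0 on the 4 Th2 arrays with Flavopiridol (-0.86 and -0.35 at 1 µM, -1.03 and -0.63 at 10 µM, unstimulated and reactivated). Rps2, which lines the mRNA entry of the small subunit, was higher by 0.52, and Rpl7l1, a nucleolar relative of Rpl7, by 0.37. Their direction turned with median centring, where Rps2 read -0.23, -0.56 and -0.33 and Rpl7l1 -0.0014, -0.14 and -0.07 on the same 3 arrays. The proteins of the stalk that recruits translation factors were at -0.51 for Rplp0, -0.33 for Rplp1 and -0.85 for Rplp2, of which Rplp0 and Rplp2 passed the test. Rpl5 (-0.77) and Rpl11 (-0.50), which with the 5S RNA form a particle that binds Mdm2, both passed it, as did Rps6 (-0.59), the target of the S6 kinases, Rpl13a (-0.79) and the ubiquitin fusion Rps27a (-0.56). Rpsa (-0.43), Rpl10 (-0.42), Rpl22 (-0.29), Rpl39 (-0.30), Rpl3 (0.15), Rpl36a (0.10) and Rpl41 (0.19) did not.

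How many members passed the test against the naive cells turned on single arrays. It was 24 without the unstimulated Th1 array of 24 hr, 26 without that of 6 hr and 60 without that of Th2, with the members' median at -0.33, -0.57 and -0.63. The first of these arrays is the one on which the family was lowest.

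Reactivation was read within the DMSO arrays, as 3 pairs of unstimulated and reactivated cells that each share a slide. The family's median shifted by -0.09 in Th1 cells at 6 hr (21 of 81 members above 0), 0.23 in Th1 cells at 24 hr (77 above 0) and -0.14 in Th2 cells (13 above 0) after loess, so the pairs ran in opposite directions there. All 3 were above 0 with spike-in centring (0.13, 0.34 and 0.36) and with the spike-in shift (0.19, 0.36 and 0.31). Their fitted mean was near 0, at 0.00 in the median over members, and at -0.11 to 0.08 when single arrays were left out. By limma 4 of 83 members were higher and 0 lower, where 21.9% of all 12526 genes tested were higher and 29.1% lower (51% either way). Among the other genes above 14 in mean log2 intensity, 9.36% were higher and 26.3% lower (35.7% either way). At an unadjusted p under 0.05 the members' counts were the same 4 and 0. The fitted change lay within 0.25 of 0 on the log2 scale for 75 members, against 33.6% of all genes, and beyond 0.5 for 3. The 95% interval of a member with the median error reached 0.33 to either side, and a change can be larger than that and still miss the adjusted threshold. Under 8 other scalings no member was lower either, 2 to 14 were higher, and the members' median ran from -0.04 to 0.29.

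The members that rose were 3 paralogues and Rpl21. Rpl7l1 read 0.45 unstimulated and 1.90 reactivated in Th1 cells at 6 hr, 0.41 and 1.96 in Th1 cells at 24 hr, and 0.25 and 2.03 in Th2 cells. The reactivated arrays were all above the unstimulated ones, and the fit gave a 3.01-fold rise (1.59 ± 0.131, SE, n = 3 pairs, limma adjusted p = 0.000357), while its parent Rpl7 read -0.18, 0.42 and -0.10 in the same pairs. Rps27l rose by 0.52 ± 0.124 (adjusted p = 0.0134) and Rpl36al by 0.49 ± 0.141 (adjusted p = 0.0276). Rpl21 rose by 0.50 ± 0.122 (adjusted p = 0.0146) on its brightest probe, which is dim for this family at a mean log2 intensity of 8.06, and read -0.06 on its other probe. The lowest members were Rps21 (-0.26), Rpl39 (-0.22), Rpl13a (-0.16), Rps27 (-0.15) and Rps12 (-0.15), none past the test. All 6 T cell markers fell on reactivation as well, with a median of -0.99, and their part in these values was not tested. Without either 24 hr Th1 array 1 member passed the test, and Rpl7l1 did so whichever of the 6 arrays was left out. The call for Rpl21 was lost without either 24 hr array, that for Rps27l when any 1 of the 4 Th1 arrays was left out, and that for Rpl36al without either 24 hr or either Th2 array.

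After loess the difference between reactivated and unstimulated cells was smaller for Rpl7l1 under the drugs, above all with Flavopiridol. It was 0.22 in Th1 and 0.30 in Th2 cells with 10 µM Flavopiridol, and -0.07 and 0.03 with 1 µM. With 500 nM JQ1 it was 0.86 in Th1 and 1.31 in Th2 cells at 6 hr and 1.33 in Th1 cells at 24 hr. The 6 hr pair of Th1 cells with JQ1 turned on the scaling, as Rpl7l1 read -0.23 unstimulated and 0.23 reactivated with median centring and -0.36 and -0.54 with spike-in centring. Unstimulated Th1 cells with Flavopiridol read 2.10 at 10 µM and 2.37 at 1 µM after loess, while Th2 cells with 10 µM read 0.69 unstimulated and 0.98 reactivated. With median centring the Th1 values were 0.44 and 0.93, below the 1.25 to 1.52 of reactivated cells without drug. Rps27l had a difference of 0.34 to 0.85 in all 12 pairs of the series after loess, but with median centring it read 0.64 unstimulated and 0.44 reactivated in Th1 cells with 500 nM JQ1 at 6 hr.

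**Figure D2:**
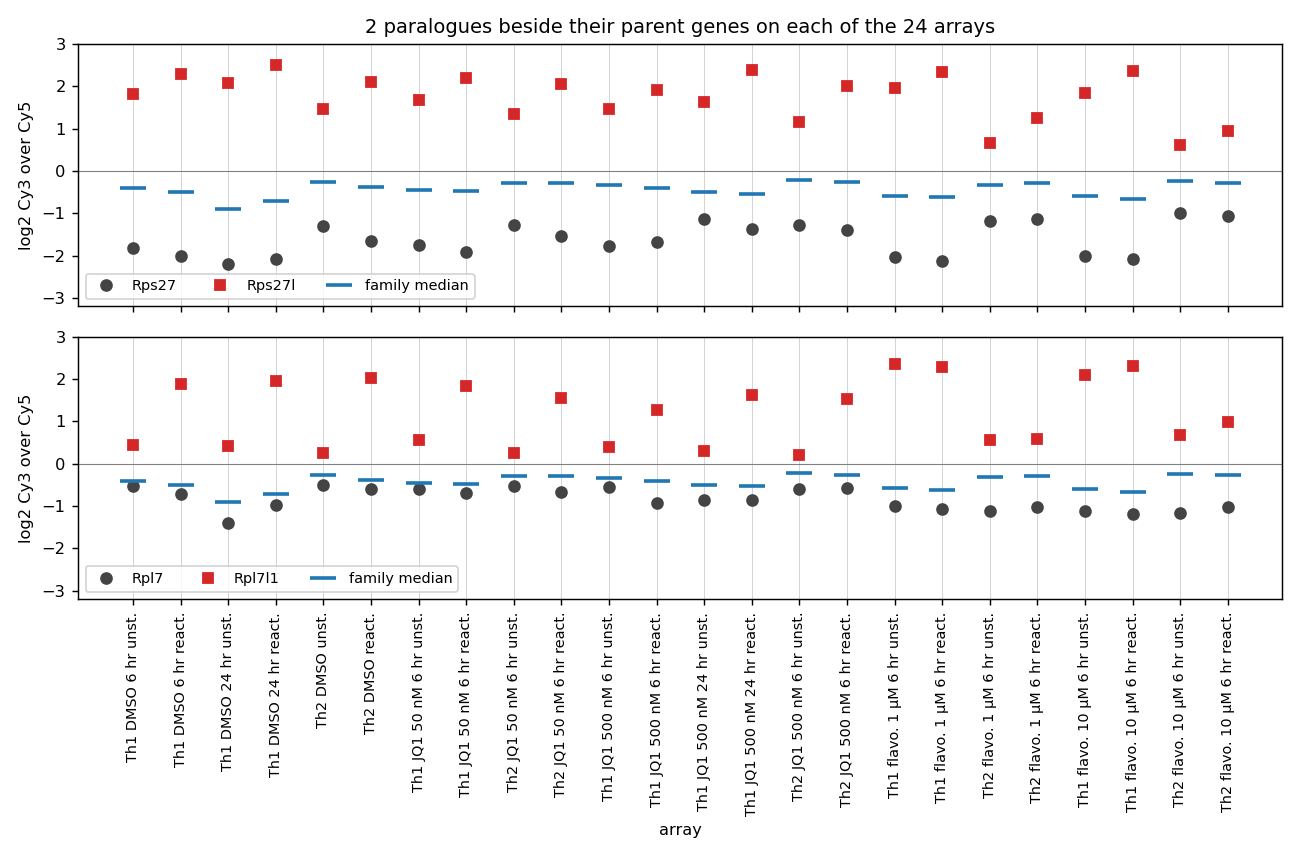
Log2 ratio of sample over naive reference on each of the 24 arrays for Rps27 and Rps27l (upper panel) and Rpl7 and Rpl7l1 (lower panel), with the median of the ribosomal protein genes as a bar. Values are after loess, where Rps27l lies above 0 and Rps27 below 0 on all arrays and Rpl7l1 is near 2 in reactivated cells without drug and in Th1 cells with Flavopiridol; with median centring Rps27l falls below 0 on the 4 Th2 arrays with Flavopiridol, and Rpl7l1 in unstimulated Th1 cells with Flavopiridol falls below reactivated cells without drug.

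Flavopiridol at 10 µM moved few members against the bulk of the genes. Over the 4 cell contexts 4 of 83 members were higher and 11 lower by limma, where 15.4% of the 12423 genes tested were higher and 33.5% lower (48.9% either way), and the members' median was 0.00 against -0.22 for all genes. This reading rests on the scaling: with the arrays centred on their medians in place of loess 39 members were higher and 4 lower, and when they were set on the 10 added spike-in RNAs 18 or 80 were lower and 0 higher. The median of all genes itself moved from -0.22 to -1.06, -1.65 and -1.35 with these settings, so the members lay 1.38 above it with median or spike-in centring and 0.23 above it with the spike-in shift after loess. No Flavopiridol array shares a slide with its DMSO control, so slide and drug cannot be told apart, and with slide as a random block 7 members passed the test. Among the other genes of the same brightness, above 14 in mean log2 intensity, 55.4% passed it.

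Rpl21, a large subunit protein, read -0.32 and 0.09 in Th1 and -0.36 and 0.17 in Th2 cells without drug, unstimulated and reactivated, and 1.07, 0.94, 1.31 and 1.30 with 10 µM Flavopiridol. The groups did not overlap, and the rise was 2.40-fold (1.26 ± 0.147, SE, n = 4 contexts, limma adjusted p = 0.000226) and 1.52 on its other probe, but it became 0.048 with median centring (adjusted p = 0.779) and -0.54 with spike-in centring. Rps21, a small subunit protein, read -0.32, -0.75, -0.08 and -0.48 without drug and 0.21, 0.12, 0.89 and 0.67 with it. Again no array of one group reached the other. The fitted change of 0.88 ± 0.138 (limma adjusted p = 0.000965) became -0.022 with spike-in centring and -0.25 with the spike-in shift. The Cy5 signal of Rps21, the shared naive reference, was 13.74 to 13.86 on the slide that holds these DMSO arrays. On the other slides it was 13.86 to 14.80, with the 24 hr DMSO arrays at 14.54 and 14.80. Rps19, which is mutated in Diamond-Blackfan anaemia, was higher by 0.39 and Rpl31 by 0.29, with adjusted p of 0.0468 and 0.0475, and both were below 0 with the spike-in shift (-0.74 and -0.83). Rpl28 (0.31) and Rpl7l1 (0.36) were next and did not pass the test.

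Among the members that fell, Rpl10, a late-joining protein near the catalytic centre, read -0.30, -0.42, -0.23 and -0.45 without drug and -0.80, -0.87, -0.86 and -0.82 with 10 µM. All 4 treated arrays were below all 4 controls, the change was -0.49 ± 0.106 (limma adjusted p = 0.00516), and its other probes gave -0.54 and -0.53. Rpl7a read 0.50, 0.28, 0.31 and 0.37 without drug and -0.06, -0.02, -0.38 and -0.16 with it, a change of -0.52 ± 0.116 (adjusted p = 0.00601). Rpl7 (-0.54 ± 0.105), Rpl23 (-0.50 ± 0.112) and Rps6 (-0.56 ± 0.130) also fell. For Rps6 and Rpl23 the probes of 1 gene disagreed, with a dimmer probe at 0.99 and 0.64. The retrogene Rps23rg1 fell by 0.61, yet read 0.16 in Cy3 alone and 0.061 in the authors' ratio table. Its Cy5 signal, the shared naive reference, was 8.99 to 9.05 on the DMSO arrays and 9.75 to 9.88 on the 10 µM arrays. Its Cy3 signal was 8.45 to 8.70 and 8.58 to 8.91, so the difference lay in Cy5 and not in the sample. Rps26, Rpl6, Rpl37, Rpl15 and Rpl10a fell by 0.38 to 0.29, while Rpl15 was at 0.40 with the mean of all its probes. With median centring Rps23rg1 alone of these 11 passed the test (-1.96), Rpl10 was at -0.0026, Rpl6 at -0.0050, Rpl23 at -0.027, Rpl7 at -0.16, Rps6 at -0.24 and Rpl7a at -0.35, and Rps26, Rpl37 and Rpl10a were above 0 (0.072, 0.21 and 0.20).

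Of the 15 members called at 10 µM, 7 (Rpl21, Rps21, Rpl10, Rpl7, Rpl7a, Rpl23 and Rps6) were called whichever of the 12 arrays was left out, while Rpl10a was lost each time and Rpl31 in 11 of 12. At the lower dose of 1 µM 2 members were higher and 9 lower, where 16.3% of all genes were higher and 35.4% lower (51.7% either way). Rpl21 was up by 1.46 and Rps21 by 0.71 at 1 µM, and Rpl7, Rpl7a, Rpl10, Rpl23, Rps6, Rps26, Rpl32, Rpl37 and Rpl10a were down by 0.47 to 0.29. These directions are after loess and rest on the scaling. With median centring the family's median change at 1 µM was 0.72 and 0.58 in Th1 and 0.27 and 0.12 in Th2 cells. With the spike-in shift it was -0.50, -0.65, -1.16 and -1.48. Rpl10 was higher in Th1 and lower in Th2 cells with median centring. Both doses were read against the same DMSO arrays.

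None of the 6 paralogues tested passed the test with 10 µM Flavopiridol, nor at an unadjusted p under 0.05, and their spread between contexts was wide. Rpl7l1 changed by 1.64 and 0.42 in unstimulated and reactivated Th1 cells and by 0.44 and -1.05 in Th2 cells. Rps27l read 1.85 and 2.35 in Th1 cells with the drug, near the 1.81 and 2.30 without it, and 0.61 and 0.95 in Th2 cells against 1.46 and 2.11. The difference of its Flavopiridol effect between Th1 and Th2 was 1.05 ± 0.205 (limma adjusted p = 0.185). The Th1 and Th2 Flavopiridol arrays lie on different slides, so cell type and slide cannot be told apart in it.

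With JQ1 at 500 nM a small group of members was slightly higher after loess, a direction that turned with the spike-in scalings. By limma 11 of 83 members were higher and 3 lower, where 17.7% of the 12905 genes tested were higher and 29.8% lower (47.6% either way). The share of members that were higher, 13.3%, was no more than that background. Among the other genes above 14 in mean log2 intensity, 19.3% were higher and 26.6% lower. The members' median was 0.05 against -0.08 for all genes. The direction held with loess and its variants, the authors' ratio table and Cy3 alone (9 to 14 higher, 3 to 5 lower), turned to 6 higher and 9 lower with the scanner software's ratio, and to 1 or 0 higher and 5 or 4 lower with median or spike-in centring, where the median of all genes moved as well. In place of 14, 3 members passed the test in a fit of the 8 arrays with 500 nM or DMSO alone, and 1 with no cell context as a block. The Th1 arrays share a slide with their controls and the Th2 arrays do not. Of the members 74 lay within 0.25 of 0, against 49.2% of all genes, and the 95% interval of a member with the median error reached 0.16 to either side.

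Rps2 rose most. In the order used above it read 0.63, 0.53, 0.60 and 0.59 without drug and 1.17, 1.09, 1.02 and 1.11 with 500 nM JQ1, with 50 nM between at 0.86, 0.71, 0.75 and 0.73. The groups at 500 nM and DMSO did not overlap, and the change was 0.51 ± 0.0659 (SE, n = 4 contexts, limma adjusted p = 0.000142), which became -0.057 only with the spike-in shift. In Th1 cells at 24 hr Rps2 read 0.34 and 0.42 with DMSO and 0.99 and 1.06 with JQ1, on the same slide. Rps20 was higher by 0.37 ± 0.072, Rpl12 by 0.29 ± 0.0678, Rpl7a by 0.27 ± 0.0685 and the stalk protein Rplp0 by 0.27 ± 0.0737, and all 4 were below 0 with spike-in centring (-0.076, -0.17, -0.22 and -0.17). Rpl3, part of the peptidyl transferase centre, rose by 0.26, and Rpl41, the smallest ribosomal protein, by 0.25. Rpl10 rose by 0.25, Rps9 by 0.24, Rps21 by 0.24 and Rplp1 by 0.19. All of these were also below 0 with both spike-in settings, and Rps21 (-0.07) and Rplp1 (-0.0050) with median centring as well. In Th2 cells the Cy5 signal of Rps21 was 13.76 and 13.74 with DMSO and 14.47 and 14.59 with 500 nM JQ1.

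The 3 members that fell with JQ1 were all paralogues, and each was below 0 under every scaling tried. Rpl39l read -0.21, 0.25, -0.13 and 0.18 without drug and -0.31, -0.17, -0.28 and -0.38 with 500 nM (-0.31 ± 0.0862, adjusted p = 0.0137). Its groups overlapped, since the unstimulated controls were close to the treated cells. Rps27l fell by 0.28 ± 0.0724 and the pseudogene Rps4l by 0.21 ± 0.0773, while Rpl7l1 changed by -0.30 and Rpl36al by -0.17 without passing the test. Rpl22l1 was at 0.18, also without passing it. The call for Rplp1 was lost in 11 of 12 fits that left out an array, those for Rps21 and Rps4l in 9, and those for Rps2, Rps20, Rpl12, Rpl7a, Rplp0, Rpl41, Rpl10, Rps9 and Rps27l in none.

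At 50 nM JQ1 limma called 0 of 83 members, where 0.333% of all genes passed the test (0.248% higher, 0.0852% lower); 2 members did at an unadjusted p under 0.05, Rps2 (0.18) and Rpl39l (-0.19). Th1 cells at 24 hr had 1 pair for each state and no test, on 1 slide. There the members' median difference between 500 nM JQ1 and DMSO was 0.47 unstimulated, with 77 of 81 members above 0, and 0.16 reactivated, with 61 above 0, after loess. With spike-in centring these medians were -0.030 and -0.076, with the spike-in shift -0.015 and -0.062, and with median centring 0.24 and -0.31, so their direction rests on the scaling. The first of these is read against the DMSO array on which the family was lowest.

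**Figure D3:**
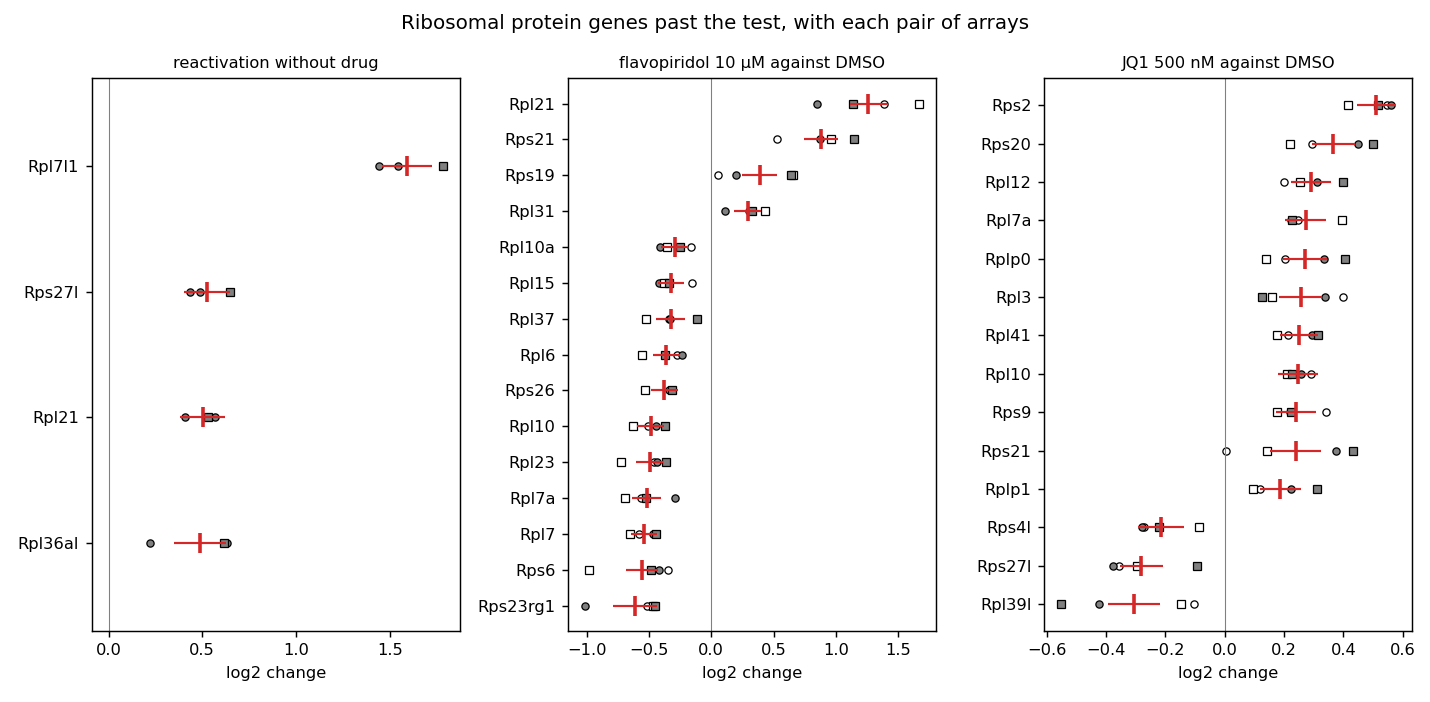
Fitted log2 change with its standard error (red) for each ribosomal protein gene with adjusted p below 0.05, and the change in each pair of arrays (circles Th1, squares Th2; open unstimulated, filled reactivated; in the left panel each pair is a reactivated against an unstimulated array). With spike-in centring Rpl21 and Rps21 in the Flavopiridol panel and the genes right of 0 in the JQ1 panel move left of 0, except Rps2, which does so only with the spike-in shift; Rpl21 in the reactivation panel keeps its side under every scaling.

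Both drugs touched 3 members, where 48.9% of all genes passed with Flavopiridol and 47.6% with JQ1. The share of all genes that passed with both was not computed, so this count is no result about the family. Rpl10 and Rpl7a were lower with Flavopiridol and higher with JQ1, and Rps21 was higher with both, all read against the same DMSO arrays. A direct fit of 10 µM Flavopiridol against 500 nM JQ1 gave 2 members higher (Rpl21, 1.09; Rps21, 0.64) and 8 lower (Rps23rg1, Rpl7a, Rpl10, Rps6, Rpl23, Rps26, Rpl7 and Rpl10a, by 0.85 to 0.43), where 18.8% of the 11899 genes tested were higher and 30.6% lower (49.4% either way). Left out in turn, single arrays took the count of 10 to between 3 and 6, and Rpl21, Rpl10 and Rpl7a remained throughout. With median centring 24 were higher and 1 lower. The Cy5 signal of Rps23rg1 was 9.75 to 9.88 on these Flavopiridol arrays and 9.15 to 9.58 on these JQ1 arrays. In all 4 contexts the arrays of these drugs lie on different slides, so slide and drug cannot be told apart here either.

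No member passed the limma test of whether a drug effect differed between cells. For 10 µM Flavopiridol in reactivated against unstimulated cells it was 0 of 83, where 15.8% of all genes passed (8.94% higher, 6.91% lower), with 1 member (Rpl21) at an unadjusted p under 0.05 and a smallest adjusted p of 0.152. For 500 nM JQ1 in the same contrast it was 0, where 10.1% of all genes passed (4.53% higher, 5.61% lower), with 4 at an unadjusted p under 0.05 and Rpl7l1 lowest (-0.53, adjusted p = 0.0967). Between Th1 and Th2 the counts were 0 for Flavopiridol, where 0.0161% of all genes passed (all lower) and 9 members had an unadjusted p under 0.05, and 0 for JQ1, where 0% passed and no member had. The Flavopiridol count was 15 with no cell context as a block, and 4 and 10 with spike-in centring and the spike-in shift. For either drug the treated Th1 and Th2 arrays lie on different slides, so cell type and slide cannot be told apart there. The JQ1 contrast between reactivated and unstimulated cells turned to 83 and 82 members lower with the spike-in settings. On the reactivated Th1 array with 500 nM JQ1 the spike-in RNAs stood at 0.90 after loess, against -0.83 to -0.26 on the 6 DMSO arrays.

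Genes that work with the ribosomal proteins were set beside them, from lists of known function. Fau and Rack1, components of the ribosome with other names, were below the naive level (-0.95 and -1.01, both past the test), and neither was called on reactivation by limma, at an unadjusted p under 0.05 either. Rack1 fell by 0.64 with 10 µM Flavopiridol. Of 17 other TOP genes, which share the pyrimidine tract, 6 were above and 2 below the naive level (31.1% and 22.3% of all genes), 4 rose and 0 fell on reactivation (21.9% and 29.1%), 2 rose and 6 fell with 10 µM Flavopiridol (15.4% and 33.5%), and 5 rose and 3 fell with 500 nM JQ1 (17.7% and 29.8%). On so few genes most of these shares are near those of all genes and are no result about the list. The elongation factor genes Eef1a1 and Eef2 were opposite under the drugs like Rpl10, at -0.53 and -0.44 with Flavopiridol and 0.31 and 0.35 with JQ1, and Pabpc1, which binds poly(A) tails, rose by 0.56 with JQ1. With the spike-in settings 0 TOP genes were higher with either drug.

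Genes for ribosome assembly and RNA polymerase I lay mostly below the naive level after loess, as the ribosomal proteins did. Of 48 genes 26 were lower and 3 higher (median -0.60), where 22.3% of all genes were lower and 31.1% higher. They had other values in the remaining comparisons, though the difference between the lists was not tested. On reactivation 46 of 48 rose and 0 fell, where 21.9% of all genes rose, with a median of 2.23 against 0.00 for the ribosomal proteins, and 45 to 47 were higher under each of 8 other scalings. Their medians were -0.72 with 10 µM Flavopiridol (1 higher, 12 lower) and -0.38 with 500 nM JQ1 (0 higher, 25 lower), below 0 under every scaling; of all genes 33.5% and 29.8% were lower, so the 12 of 48 with Flavopiridol were no more than the background. In reactivated minus unstimulated cells 40 of 48 had a lower Flavopiridol effect (median -2.32) and 19 of 48 a lower JQ1 effect (median -0.56). Of all genes 6.91% and 5.61% were lower in these contrasts, and no ribosomal protein gene passed. The contrasts use DMSO arrays that also gave the reactivation values, so they are not separate from that rise. Initiation factors rose on reactivation (26 of 30, median 0.91) and fell with Flavopiridol (18 of 30, median -1.12), beside the same shares of all genes.

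Among regulators of the family, Myc rose by 3.30 on reactivation and fell by 2.73 with 10 µM Flavopiridol and 0.62 with 500 nM JQ1. Larp1, which binds the TOP tract, rose by 1.54 on reactivation and fell by 1.47 and 0.54 with these drugs, and Rheb, an activator of mTOR, rose by 1.07 and fell by 1.28 with Flavopiridol. Over the 14 mTOR and TOP regulators tested, 3 rose and 3 fell on reactivation, 1 rose and 8 fell with Flavopiridol, and 2 rose and 4 fell with JQ1, beside the same shares of all genes as above, and these counts are no result about the list.

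The proteins of the mitochondrial ribosome, encoded by 78 named genes, are given beside the cytosolic ones, and the difference between the lists was not tested. Of 77 tested 34 were above and 6 below the naive level (median 0.25, which turned to -0.32 and -0.71 with median and spike-in centring), and 34 rose and 5 fell on reactivation, where of all genes 31.1% were above and 22.3% below naive and 21.9% rose and 29.1% fell. With 10 µM Flavopiridol 45 of 76 fell and 6 rose (median -0.98), and with 500 nM JQ1 54 of 77 fell and 4 rose (median -0.41), where 33.5% and 29.8% of all genes fell. The proteasome subunits, another large complex, had 29 of 37 above and 0 below the naive level (median 0.64, with -0.34 under spike-in centring), 19 lower and 1 higher with Flavopiridol and 22 lower and 1 higher with JQ1, beside the same shares of all genes.

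**Figure D4:**
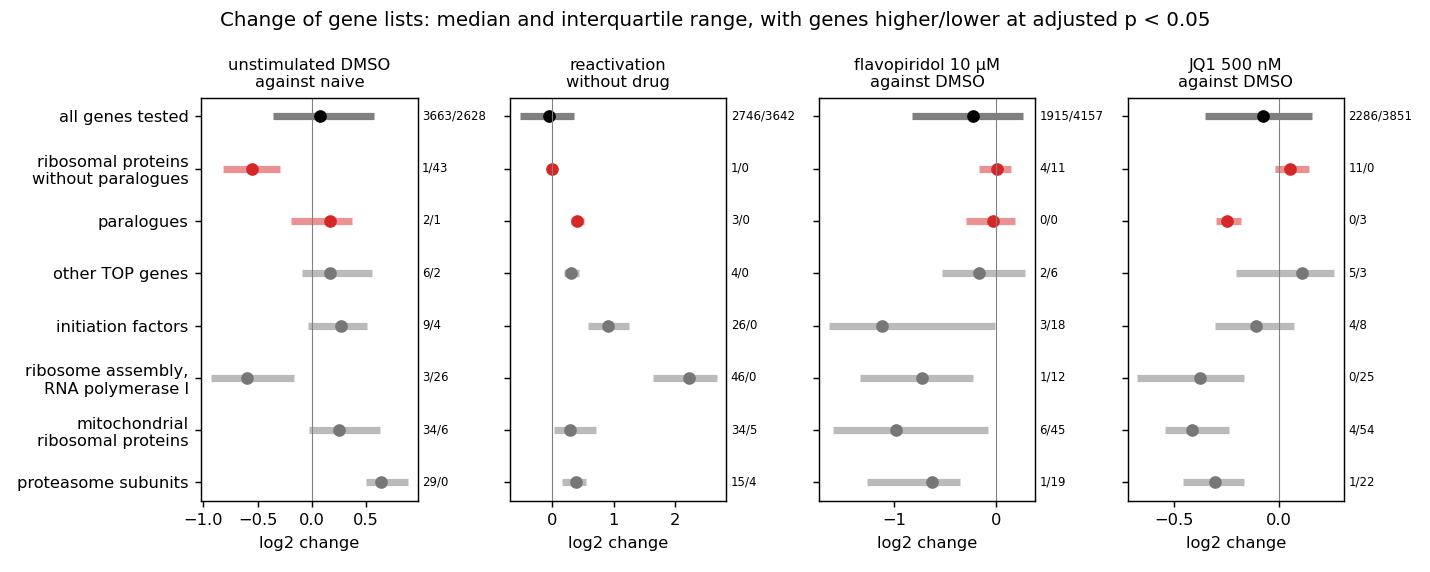
Median (point) and interquartile range (bar) of the fitted log2 change over all genes tested, the ribosomal protein genes and related gene lists in 4 comparisons, with the number of genes higher and lower at an adjusted p below 0.05 on the right of each row. The ribosomal proteins are near 0 in the last 3 panels; they move to -0.26 or -1.12 for Flavopiridol and -0.41 or -0.51 for JQ1 with the spike-in settings.

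Probes of the same gene were compared as a check on the choice of the brightest. For 51 members 84 other probes were well above background on all arrays, with a median log2 intensity of 15.9 against 16.7 for the brightest. On reactivation the other probes had a median change of 0.01 against -0.01 for the brightest, and 5 of 84 differed by over 0.5. With JQ1 it was 0.08 against 0.05, and 1 differed by over 0.5. Under 10 µM Flavopiridol the other probes stood at 0.21 against 0.00, higher than the brightest in 77 of 84 cases, with 20 that differed by over 0.5. Taking the mean of all probes of a gene accordingly gave 20 members higher and 6 lower with Flavopiridol, in place of 4 and 11. Where in the transcript each probe binds was not tested.

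**Figure D5:**
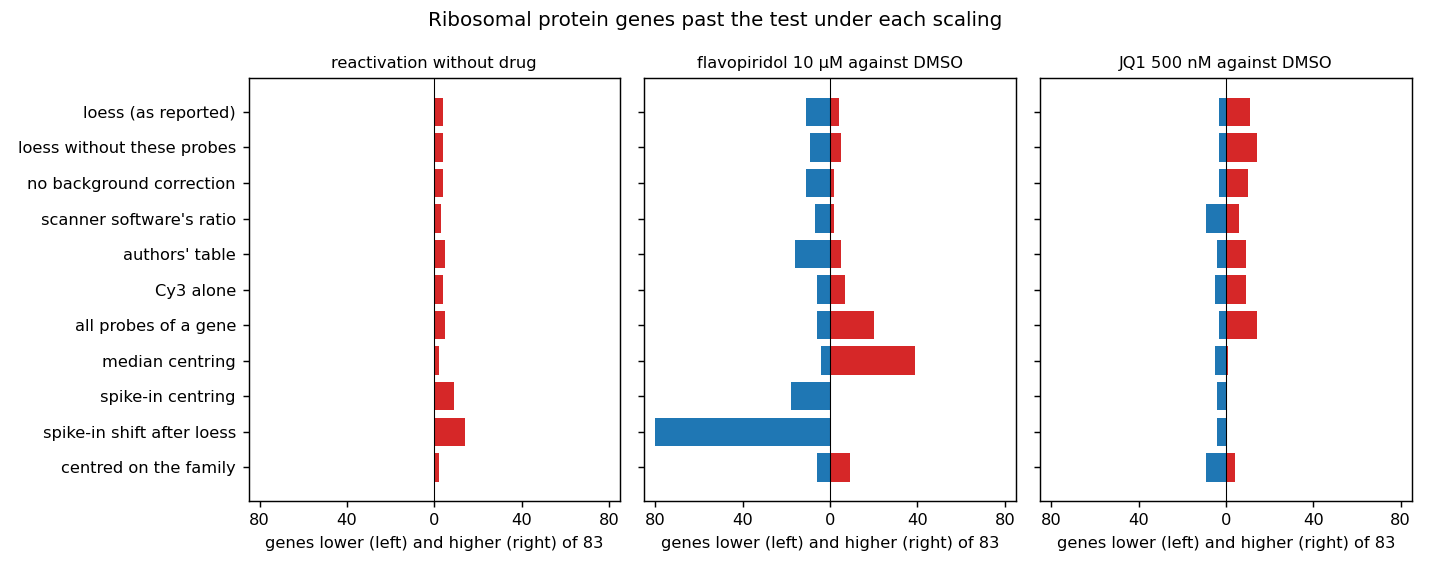
Number of ribosomal protein genes of 83 with an adjusted p below 0.05, lower (blue, left) and higher (red, right), under each scaling of the arrays in 3 comparisons. Reactivation has none lower under any setting, Flavopiridol runs from 39 higher and 4 lower with median centring to 80 lower with the spike-in shift, and JQ1 loses its higher genes with both spike-in settings.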

How the data were processed

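RNA of 24 conditions, 1 two-colour array each, was measured; no per-sample column was left unmapped. The deposited scanner files hold spot and background intensity from Agilent Feature Extraction 10.7.1.1, and the authors' software also gave a log10 ratio of Cy5 over Cy3. A deposited table holds the authors' log2 ratios, with a normalization not given in the sources used here; its columns correlated with the ratios below at 0.981 to 0.996.

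Median spot intensities were background corrected with normexp (offset 50) and normalized by loess within arrays in limma 3.58.1 (R 4.3.3), without control and flagged spots (234 to 331 per array). Ratios are log2 of Cy3 (sample) over Cy5 (naive). Of 55681 probes 26425 had a symbol, and the brightest probe per gene was used. Genes well above background in Cy3 on at least 3 arrays of a fit were tested with lmFit and eBayes, with cell context or pair as a block, at a Benjamini-Hochberg adjusted p below 0.05; 52 genes with a missing value, no member among them, were left out where it fell. Alternatives covered scaling, channel, background, probe rule, filter, slide, block and single arrays.

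The named members were the 5 highest and 5 lowest in reactivation, 10 µM Flavopiridol and 500 nM JQ1, the paralogues, the stalk and 13 well-known members, and the named other genes were those of the component, TOP and mTOR lists and the 5 with the most similar pattern. Members and lists were chosen with earlier results of these data known. Some items of these lists are not reported here. The number of arrays limits precision. The fits were tested on simulated data. The deposited samples' pairing comes from cell type, state and time in the labels, since each condition has 1 array.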

Additional observations from a re-analysis of the deposited data

Results flagged for a closer look

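With 10 µM Flavopiridol, 1 of the 4 cell contexts lay far from the others for the retrogene Rps23rg1. Its change was -1.01 in reactivated Th1 cells and -0.52, -0.47 and -0.45 in the other contexts, a gap of 0.887 of the range. In reactivated Th1 cells its Cy5 signal was 8.99 with DMSO and 9.88 with the drug, and its Cy3 signal 8.70 and 8.58. With 500 nM JQ1, Rpl7a changed by 0.40 in unstimulated Th2 cells and by 0.25, 0.22 and 0.23 elsewhere, a gap of 0.851 of the range. Among the 22 values examined in this way, chance marks about 1 in 20. After loess the median of the ribosomal protein genes moved in opposite directions in Th1 and Th2 cells with 10 µM Flavopiridol, by -0.14 and -0.11 in Th1 and 0.11 and 0.14 in Th2 cells, a difference of -0.25 between their means; the difference of the medians was not tested, and all 4 medians were above 0 with median centring (0.33, 0.53, 0.25 and 0.26) and below 0 with the scanner software's ratio (-0.047, -0.0081, -0.046 and -0.098). Over single genes the fitted median difference was -0.22 with loess and 0.55 with spike-in centring. The Th1 and Th2 Flavopiridol arrays lie on different slides and the time of the Th2 controls is unclear. Cell type, slide and time cannot be told apart in this difference.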

How the results depend on the processing

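Of 151 counts of called members under other settings, single arrays left out not included, 108 stayed within 1.5 times their main value. Of the rest 20 were stronger and 23 weaker, and 32 of 131 values of the members' median were marked as moved. Of 379 values of single members 18 reversed, 14 moved, 48 were weaker and 11 stronger. The 18 do not include every turn of direction given above, such as that of Rpl31 with the spike-in shift. Against the naive cells, 80 members were called with median centring, 83 with spike-in centring, 31 with the spike-in shift and 30 with the scanner software's ratio; slide could not be fitted as a block and Cy3 alone was not run there. On reactivation the count was 2 with median centring, 9 with spike-in centring, 14 with the spike-in shift, and 2 and 1 when arrays were centred on the ribosomal protein median after loess and with no loess, a setting chosen after seeing the data.

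For 10 µM Flavopiridol it was 43 with median centring, 80 with the spike-in shift, 9 with the software's ratio, 26 with the mean of all probes, 7 with slide as a random block and 6 with the 8 arrays of that dose and DMSO. With 1 µM it was 52 with median centring, 79 with the spike-in shift, 5 with the software's ratio or spike-in centring, 23 with the mean of all probes or the authors' table, 7 with slide as a random block and 20 with no filter on dim probes. With 500 nM JQ1 it was 6 with median centring, 4 with either spike-in setting, 7 with the ribosomal protein median and no loess, and 3 with the 8 arrays of that dose and DMSO. For Flavopiridol against JQ1 it was 25 with median centring, 1 with either spike-in setting, 4 with the software's ratio, 5 with Cy3 alone, 18 with the mean of all probes, and 5 and 6 with the ribosomal protein median. In reactivated minus unstimulated cells the count became 1 for Flavopiridol with slide as a block, and 83 and 82 for JQ1 with spike-in centring and shift. For Flavopiridol in Th1 minus Th2 it became 4 and 10 with these settings.

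Each condition has 1 array, so the block was the cell context or pair from the labels. With no such block 1 member was called for 500 nM JQ1 in place of 14, 15 for Flavopiridol in Th1 minus Th2 in place of 0, and 3 on reactivation in place of 4, where Rps27l lost its call; the other counts kept within 1.5 times.

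For single members under 10 µM Flavopiridol, spike-in centring reversed Rpl7l1 (-1.34), Rps21 (-0.022) and Rpl21 (-0.54), and the spike-in shift Rpl28 (-0.81), Rps19 (-0.74) and Rps21 (-0.25). Rps23rg1 reversed in the authors' table (0.061) and Cy3 alone (0.16), and Rps6 with the mean of all probes (0.057). With 500 nM JQ1, spike-in centring reversed Rplp0 (-0.17), Rpl7a (-0.22), Rpl12 (-0.17) and Rps20 (-0.076), and the spike-in shift Rplp0 (-0.30), Rpl7a (-0.29), Rpl12 (-0.28), Rps20 (-0.20) and Rps2 (-0.057). This list does not cover every member. With JQ1, Rpl3, Rpl41, Rpl10, Rps9, Rps21 and Rplp1 turned with both spike-in settings as well. With Flavopiridol, Rpl31, Rps26, Rpl37, Rpl10a and Rpl15 turned under other settings given above. Apart from the settings' own construction the cause was not tested.

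With single arrays left out the counts ran from 24 to 60 against naive, 1 to 3 on reactivation, 7 to 14 for either Flavopiridol dose, 10 to 15 for 500 nM JQ1, 0 to 0 for 50 nM JQ1, 0 to 1 for Flavopiridol in reactivated minus unstimulated cells, 0 for the other differences between cells, and 3 to 6 for Flavopiridol against JQ1. Dim members such as Rpl39l, Rps4l and Rpl21 are the least certain in level.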
